A study of Mus musculus with 12 samples.

Results

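The genes for mitochondrial ribosomal proteins were followed through nintedanib, X-rays and both together in MC38, a mouse colorectal cancer cell line. They were chosen by name, as the protein-coding genes whose symbol starts with Mrpl or Mrps and a number. This gave 78 of 54532 genes in the table, 49 for proteins named for the large ribosomal subunit (Mrpl) and 29 for proteins named for the small subunit (Mrps). Cultures of this single line formed 4 groups of 3 libraries. The combination group received 8 Gy of X-rays and 3 µM nintedanib, a drug that blocks receptor tyrosine kinases for VEGF, PDGF and FGF. The nintedanib group received 3 µM of the drug alone, the radiation group 8 Gy alone, and the control group neither. The labels give 24 hours for the treatments, no time for the controls and no vehicle.

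Mitochondria carry their own ribosome, which translates the few messenger RNAs of the mitochondrial genome into core subunits of the respiratory chain and the ATP synthase. Its ribosomal RNAs are transcribed inside the organelle. Its proteins are encoded in the nucleus, made in the cytosol and imported, so the particle needs both genomes.

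Libraries held 16103528 to 18196615 fragments, recovered from the deposited FPKM values (fragment numbers scaled to gene model length and to library size). Fragments are not independent molecules, so depth describes counting error only. For a gene model of 1000 bases, 1 FPKM stood for 16.4 to 18.7 fragments. The third nintedanib library had the highest mitochondrial share of fragments, 2.12%, against a lowest of 1.23%. Of markers for an epithelial colorectal line, Epcam had a value of 0 in each of the 12 libraries. Krt8, Krt18, Krt20 and Cdx2 reached at most 0.601, 0.0838, 0.0317 and 0.0473 FPKM. Cdh1 stood at 4.12 to 8.73 FPKM and the mesenchymal filament gene Vim at 498 to 618 FPKM. The leukocyte gene Ptprc reached at most 0.0292 FPKM and the endothelial gene Pecam1 at most 0.447 FPKM.

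In 77 of 78 members, 3 or more libraries reached 1 FPKM, and Mrpl53, with a gene model of 790 bases on chromosome 6, was listed at 0 in all 12 libraries. The annotated body of Mrpl53 lies over 900 bases within that of Gm42688 on the same strand. Whether this overlap bears on its 0 was not tested, and the 0 was not taken as a measure of its expression. Over all libraries the mean level of the 77 ran from 2.28 to 53.7 FPKM, with a median of 13.2. Per length, the highest levels were those of Mrpl2 (53.7 FPKM), Mrpl28 (45.9 FPKM), Mrpl34 (45.8 FPKM) and Mrps21 (35.5 FPKM). The lowest among those tested were Mrps25 (2.28 FPKM), Mrpl48 (2.59 FPKM), Mrps35 (2.76 FPKM) and Mrps30 (3.56 FPKM). The gene models were 607 to 8631 bases long, and each member rested on 134 to 1655 fragments in a library. The members lay on 17 chromosomes, 11 of them on chromosome 11. The table also lists 5 processed pseudogenes with such names, at no more than 4.88 FPKM. They were not counted as members, and how reads were shared between the copies is uncertain.

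As a group the members took 0.227 to 0.273% of fragments in combination libraries, 0.234 to 0.264% in nintedanib libraries, 0.242 to 0.270% in radiation libraries and 0.267 to 0.311% in control libraries. Their summed level was 1042, 1263 and 1305 FPKM in combination libraries and 1255, 1068 and 1047 FPKM in nintedanib libraries. It was 1191, 1046 and 1057 FPKM in radiation libraries and 1188, 1432 and 1257 FPKM in control libraries. Each treated group overlapped the controls in this sum, in which the first control library was the lowest control. In bulk samples, fewer cells of a type and less RNA per cell cannot be told apart.

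**Figure D1:**
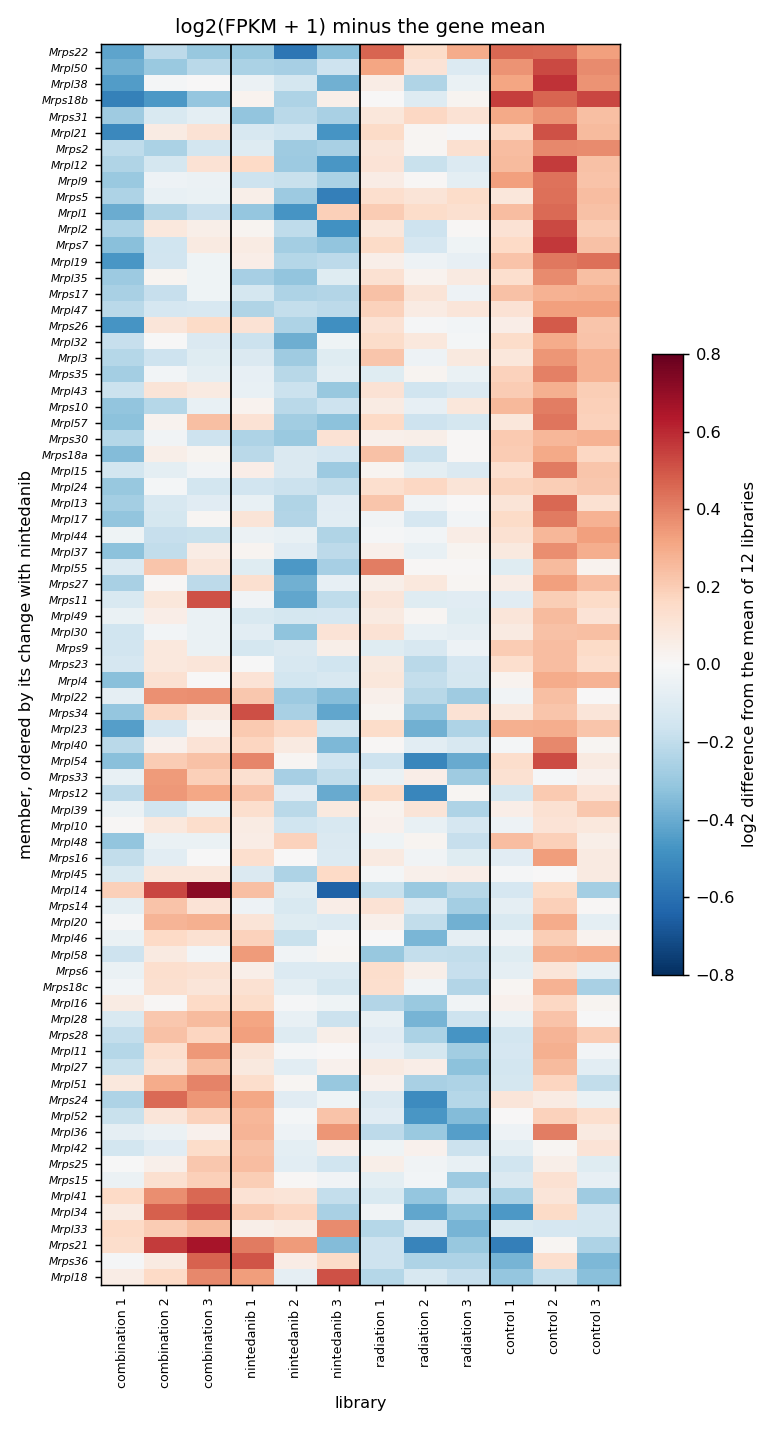
log2(FPKM + 1) of each of the 77 tested members (rows, ordered by their change with nintedanib) minus its mean over the 12 libraries (columns, grouped as combination, nintedanib, radiation and control); red is above and blue below the gene's mean. Most rows are red in the 3 control libraries, and the second control library is the reddest, with a median difference of 0.28.

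The promoters of 4 members are shown because these members moved most: Mrps18b, Mrps22 and Mrpl50 fell furthest and Mrps21 had the largest rise. Each run is the RefSeq promoter window on GRCm38.p6, from 250 bases before to 50 after the start, read 5′ to 3′ on the minus strand of chr17:35916391-35916690, chr9:98601630-98601929, chr4:49521034-49521333 and chr3:95871465-95871764, in the order Mrps18b, Mrps22, Mrpl50 and Mrps21. Capitals mark matches to any of 5 motifs, on either strand.
Mrps18b: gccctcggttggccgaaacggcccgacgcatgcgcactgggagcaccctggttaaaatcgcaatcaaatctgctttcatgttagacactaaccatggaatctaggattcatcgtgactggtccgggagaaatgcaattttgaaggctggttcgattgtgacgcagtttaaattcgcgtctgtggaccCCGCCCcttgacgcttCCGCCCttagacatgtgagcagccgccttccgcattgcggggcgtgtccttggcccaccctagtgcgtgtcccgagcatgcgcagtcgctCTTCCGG
Mrps22: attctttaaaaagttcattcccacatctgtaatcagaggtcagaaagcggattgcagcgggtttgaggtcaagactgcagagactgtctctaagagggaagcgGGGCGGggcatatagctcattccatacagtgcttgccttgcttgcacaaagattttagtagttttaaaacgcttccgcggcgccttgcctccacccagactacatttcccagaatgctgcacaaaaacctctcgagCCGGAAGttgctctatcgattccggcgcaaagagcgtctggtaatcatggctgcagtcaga
Mrpl50: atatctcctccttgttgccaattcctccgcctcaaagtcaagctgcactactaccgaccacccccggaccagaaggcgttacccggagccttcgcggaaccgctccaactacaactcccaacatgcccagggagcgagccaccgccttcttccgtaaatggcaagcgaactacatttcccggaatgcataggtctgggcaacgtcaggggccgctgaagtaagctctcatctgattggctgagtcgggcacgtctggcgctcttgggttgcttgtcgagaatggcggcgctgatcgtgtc
Mrps21: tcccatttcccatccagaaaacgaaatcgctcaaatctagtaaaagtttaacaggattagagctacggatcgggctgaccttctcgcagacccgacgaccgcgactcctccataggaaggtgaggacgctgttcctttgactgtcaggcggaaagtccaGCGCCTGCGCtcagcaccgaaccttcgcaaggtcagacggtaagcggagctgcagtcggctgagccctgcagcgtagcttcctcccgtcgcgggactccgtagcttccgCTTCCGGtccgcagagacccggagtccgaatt

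The motifs searched were those named for NRF1, ETS factors (CCGGAAG), YY1 (AAGATGGC), the E-box (CACGTG) and the GC box (GGGCGG). The first 3 are textbook elements of nuclear genes for mitochondrial proteins, and the E-box is the element that Myc and its relatives bind. Mrps18b had a GC box at -63 and at -47 and an ETS match at 44, counted from the RefSeq start. For Mrps18b that start lies 51 bases upstream of the deposited one, so all 3 matches lie before the deposited gene body. For Mrps22, Mrpl50 and Mrps21 the RefSeq and deposited starts differ by 19, 10 and 5 bases. Mrps22 had a GC box at -147 and an ETS match at -11, Mrps21 an NRF1 match at -91 and an ETS match at 19, and the Mrpl50 window held none of these letter strings. No match overlapped another in these 4 windows. Windows were matched by symbol for 68 of the 77 tested members and set beside those of 8545 protein-coding genes tested. The NRF1 string was in 19.1% of the members' windows and 11.5% of all windows, the ETS string in 33.8% and 20.1%, and the YY1 string in 17.6% and 5.17%. The E-box was in 7.35% of the members' windows and 10.6% of all windows, and the GC box in 50% and 67.7%. A match describes the letters in the window and is no measure of binding.

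The drug alone was compared with control to ask for its effect without X-rays. With it 34 of the 77 members fell and 2 rose, against 22.0% of all 13012 genes tested that fell and 19.7% that rose (41.6% in either direction), by limma on log2(FPKM + 1) at a Benjamini-Hochberg adjusted p under 0.05. The members' median log2 fold change was -0.27, and that of all genes -0.02. The fall took in genes named for either subunit: 21 of 48 Mrpl genes and 13 of 29 Mrps genes. Changes ran from -0.82 to 0.54 (log2). Rescaling each library to a common sum of FPKM left 26 lower and 4 higher. That rescaling moved the share of all called genes that were higher to 60.0%, against 47.2% as deposited, while the members' median less that of all genes was -0.24, against -0.25.

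Mrps22, a small-subunit protein, had the largest fall with the drug (ENSMUSG00000032459, chromosome 9, 98588730 to 98601660). It stood at 5.20, 4.11 and 5.07 FPKM in nintedanib libraries, against 9.49, 9.47 and 8.59 FPKM in control libraries. All 3 drug libraries were below all 3 controls (log2 fold change -0.82, SE 0.10, limma adjusted p = 7.26e-05). The large-subunit gene Mrpl50 (ENSMUSG00000044018, chromosome 4, 49512596 to 49521093) came next, at 16.3, 16.1 and 17.4 FPKM in nintedanib libraries and 25.4, 28.7 and 25.8 FPKM in control libraries. These groups did not overlap either (log2 fold change -0.65, SE 0.10, limma adjusted p = 0.000333).

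Among the other members that fell, Mrpl38 averaged 17.0 ± 2.15 FPKM in nintedanib libraries and 26.4 ± 2.70 FPKM in control libraries (SD, n = 3 each; log2 fold change -0.61). Mrps18b averaged 12.3 ± 1.45 FPKM in nintedanib libraries and 18.7 ± 0.598 FPKM in control libraries (log2 fold change -0.57, SE 0.09, limma adjusted p = 0.00035). Mrps31 averaged 4.33 ± 0.182 FPKM in nintedanib libraries and 6.89 ± 0.337 FPKM in control libraries, with a log2 fold change of -0.57. Mrpl21, Mrps2, Mrpl12, Mrpl9 and Mrps5 followed, with log2 fold changes of -0.56, -0.56, -0.55, -0.53 and -0.52. Mrpl12 encodes the relative of the bacterial stalk protein that recruits translation factors, and Mrps2 and Mrps5 encode relatives of bacterial small-subunit proteins. Mrpl27 was the member nearest to no change (log2 fold change 0.00).

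The 2 members that rose with the drug were Mrpl18 and Mrpl33, both for large-subunit proteins. Mrpl18 (ENSMUSG00000057388, chromosome 17) stood at 27.2, 20.3 and 30.8 FPKM in nintedanib libraries, against 17.0, 18.6 and 16.7 FPKM in control libraries. The groups did not overlap (log2 fold change 0.54, SE 0.13, limma adjusted p = 0.0065). Its gene body overlaps that of the chaperonin gene Tcp1, on the other strand, by 645 bases. Tcp1 averaged 81.2 FPKM over all libraries and fell (log2 fold change -0.26). With the strand setting not given in the sources used here, reads of both genes cannot be told apart there. The gene bodies of 26 of the 77 tested members overlap that of a tested gene, so this limit is not particular to Mrpl18. Mrpl33 averaged 8.74 ± 1.28 FPKM in nintedanib libraries and 6.88 ± 0.0564 FPKM in control libraries (SD, n = 3 each; log2 fold change 0.30, limma adjusted p = 0.0219). That call was lost when any 1 of the controls or the third nintedanib library was left out.

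**Figure D2:**
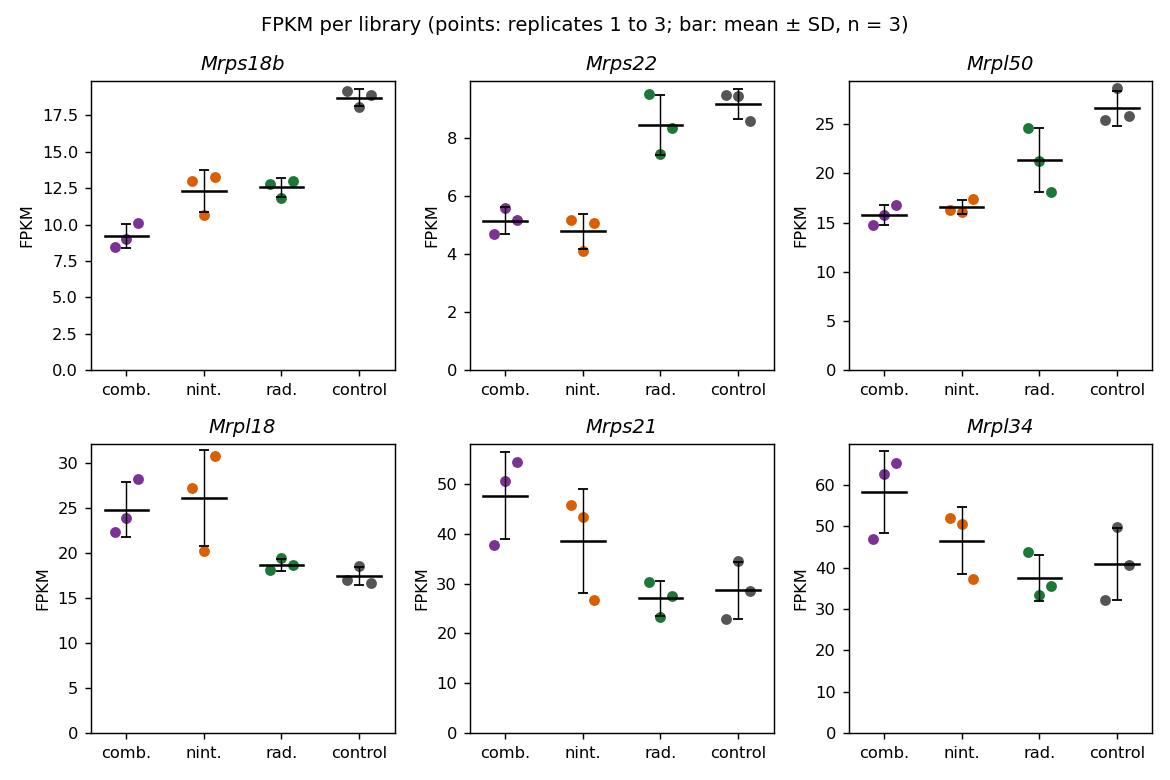
FPKM (y axis, linear from 0) of 6 members in each library (points), with the mean and SD of each group (bars, n = 3). Mrps18b, Mrps22 and Mrpl50 are lower in the combination and nintedanib libraries than in every control library, and Mrpl18 is higher in them.

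Radiation against control asks what 8 Gy of X-rays alone changed. After it 14 of the 77 members fell and 0 rose, against 9.90% of all genes that fell and 8.04% that rose (17.9% in either direction). The members' median log2 fold change was -0.20, against -0.04 for all genes, and 72 of 77 were below 0, as were 7308 of all 13012 genes. These genes share libraries, so the count is no measure of replication. Between replicates the members' median of log2(FPKM + 1) had an SD of 0.11, pooled over groups. The 14 were 10 Mrpl and 4 Mrps genes. The count of members called varied with the libraries used. It was 1 without the second control or the second radiation library, 2 without the third control and 4 without the third radiation library. Calls over all genes fell as well in these settings, to 1333, 1145, 1250 and 1575 without the second control, the second radiation, the third control and the third radiation library, against 2334 with all libraries. The members' count was 7 without the second combination library, whose spread enters the shared fit, and 9 without the first radiation or the second nintedanib library. With 3 other scalings of the FPKM values it was 3, 8 and 5. The share of all called genes that were higher ran up to 69.7% in them, against 44.8% as deposited. The members' median less that of all genes was -0.15 to -0.16 in those scalings, against -0.16 as deposited. With limma-voom on the recovered fragments, which has its own scaling, the count was 15 and that difference -0.18.

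Mrps18b was the member whose fall after radiation held in each of the 25 other settings tried. It stood at 12.8, 11.8 and 13.0 FPKM in radiation libraries, against 19.2, 18.0 and 18.9 FPKM in control libraries. No library of one group reached the other (log2 fold change -0.54, SE 0.09, limma adjusted p = 0.00254). The largest fall was that of Mrpl54, a large-subunit gene, at 19.0, 14.7 and 16.0 FPKM in radiation libraries and 23.8, 31.3 and 22.6 FPKM in control libraries. Its groups did not overlap, but the second control library was far above the others, and the call (log2 fold change -0.61, limma adjusted p = 0.0446) was lost in 13 of 25 settings, among them those without any 1 of the controls or radiation libraries.

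Mrpl38 (-0.49), Mrpl36 (-0.46), Mrpl52 (-0.41), Mrpl58 (-0.39), Mrpl19 (-0.38), Mrpl17 (-0.34), Mrpl9 (-0.34) and Mrps35 (-0.33) had the next largest log2 fold changes among the members called after radiation. Mrpl23 (-0.42), Mrpl12 (-0.41) and Mrps28 (-0.38) had values as large that did not pass. Mrpl58 encodes the peptidyl-tRNA hydrolase that frees nascent chains from stalled mitochondrial ribosomes. It averaged 7.86 ± 0.392 FPKM in radiation libraries and 10.7 ± 1.75 FPKM in control libraries (SD, n = 3 each; limma adjusted p = 0.048), and its call was lost in 16 of 25 settings. Mrpl18, which rose with the drug, had 18.1, 19.4 and 18.6 FPKM in radiation libraries, which overlapped its control values.

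Cells given both treatments were compared with control to ask for their joint effect. With both, 32 of the 77 members fell and 6 rose, against 25.0% of all genes that fell and 22.3% that rose (47.2% in either direction). The members' median log2 fold change was -0.22, against -0.03 for all genes. Those that fell were 19 Mrpl and 13 Mrps genes, and those that rose were 5 Mrpl genes and Mrps21. With a common sum of FPKM 27 members fell and 8 rose, with median ratio scaling 27 and 8, and with library totals 25 and 8. Of all genes 2561, 2890 and 2697 fell in these settings, and 3198, 3210 and 3374 rose. With limma-voom 32 members fell and 8 rose, and of all genes 3019 fell and 3222 rose. The number of members that fell was 21 without the second control library, where 2898 of all genes fell, against 3250 with all libraries. The number of members that rose was 3 without the first control, the second combination or the third combination library. Of all genes 2500, 2561 and 2621 rose in those settings, against 2898 with all libraries.

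**Figure D3:**
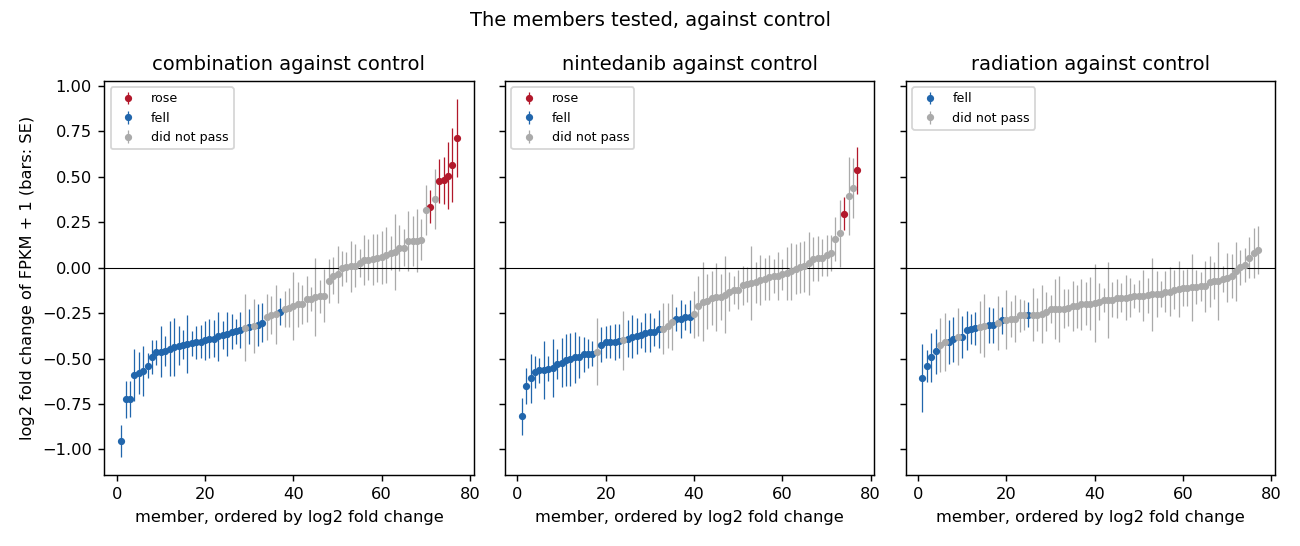
log2 fold change of FPKM + 1 (y axis; bars are standard errors) of each tested member, ordered by that change along the x axis, for combination, nintedanib and radiation against control. Points in colour passed an adjusted p of 0.05: 6 rose and 32 fell with the combination, 2 rose and 34 fell with nintedanib, and 14 fell with radiation.

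Mrps18b had the largest fall with the combination (ENSMUSG00000024436, chromosome 17, 35910379 to 35916389). It stood at 8.47, 9.01 and 10.1 FPKM in combination libraries, against 19.2, 18.0 and 18.9 FPKM in control libraries. Every combination library was far below every control library (log2 fold change -0.95, SE 0.09, limma adjusted p = 7.67e-06). Mrps22 was at 4.70, 5.60 and 5.20 FPKM in combination libraries, against the control values above (log2 fold change -0.73). Mrpl50 was at 14.8, 15.8 and 16.7 FPKM in combination libraries, again with no overlap with the controls (log2 fold change -0.72). Mrpl1 (-0.59), Mrpl19 (-0.58), Mrpl38 (-0.57), Mrps2 (-0.54), Mrps10 (-0.49), Mrps31 (-0.47) and Mrps7 (-0.46) followed on the same scale.

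The members that rose with the combination were Mrps21, Mrpl14, Mrpl34, Mrpl18, Mrpl41 and Mrpl33. Mrps21, for a small-subunit protein, had the largest rise (ENSMUSG00000054312, chromosome 3). It stood at 37.8, 50.7 and 54.5 FPKM in combination libraries, against 23.0, 34.5 and 28.6 FPKM in control libraries. The groups did not overlap, and the first combination library was close to the highest control (log2 fold change 0.72, SE 0.21, limma adjusted p = 0.0169). Mrpl14 averaged 36.1 ± 6.69 FPKM in combination libraries and 24.0 ± 3.83 FPKM in control libraries (SD, n = 3 each; log2 fold change 0.57). Its gene body overlaps that of Tmem63b, on the other strand, by 584 bases, where reads cannot be told apart either. Tmem63b did not pass with the combination (log2 fold change 0.16, limma adjusted p = 0.0879). Mrpl34 averaged 58.3 ± 9.92 FPKM in combination libraries and 40.9 ± 8.78 FPKM in control libraries, with overlap between the groups (log2 fold change 0.51). The calls of Mrps21, Mrpl14 and Mrpl34 were lost in 4, 10 and 9 of 25 settings. Each time these included the settings without the first control, the second combination or the third combination library. Mrpl18 (0.48), Mrpl41 (0.48) and Mrpl33 (0.34) lost theirs in 1 setting each, the one that kept only the first combination library.

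Nintedanib in irradiated cells was examined by the combination against radiation. Here 9 members fell and 8 rose, against 17.3% of all genes that fell and 17.2% that rose (34.4% in either direction). The members' median log2 fold change was -0.01, the same as that of all genes to 2 decimals. Mrps22 had the largest fall, at 4.70, 5.60 and 5.20 FPKM in combination libraries against 9.54, 7.47 and 8.37 FPKM in radiation libraries (log2 fold change -0.61, SE 0.10, limma adjusted p = 0.000757). Mrpl1 (-0.44), Mrps18b (-0.41), Mrpl50 (-0.41), Mrpl24 (-0.29), Mrps31 (-0.29), Mrps2 (-0.28), Mrpl47 (-0.27) and Mrps17 (-0.26) were the other 8 that fell.

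The 8 that rose in this comparison were Mrps21 (0.79), Mrpl14 (0.71), Mrpl34 (0.61), Mrpl41 (0.52), Mrpl33 (0.44), Mrpl51 (0.42), Mrpl18 (0.38) and Mrpl16 (0.26), in log2 fold change. Mrps21 stood at 37.8, 50.7 and 54.5 FPKM in combination libraries, against 30.4, 23.4 and 27.4 FPKM in radiation libraries, with no overlap. The number that rose was 2 without radiation library 2 or the third combination library, 3 without the second combination library and 5 without the third radiation library. It was 15 without the first combination library. Of all genes 1760, 1845, 1783, 1880 and 2153 rose in these settings, in the order named, against 2232 with all libraries. The number of members that fell was 7 to 10 when any 1 library was left out, and that of all genes 1747 to 2383.

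The drug's effect can be set side by side in irradiated and unirradiated cells, since combination against radiation and nintedanib against control share no library. All 9 members that fell in irradiated cells were among the 34 that fell in unirradiated cells, and both members that rose in unirradiated cells were among the 8 that rose in irradiated cells. Of all genes, 1729 of the 2246 that fell in irradiated cells were among the 2860 that fell in unirradiated cells, and 1687 of the 2559 that rose in unirradiated cells were among the 2232 that rose in irradiated cells. The 2 log2 fold changes had the same sign in 68.8% of the members and 77.1% of all genes. Across the 77 members, Pearson's r between the 2 sets of log2 fold changes was 0.83, and across all 13012 genes 0.75. These describe genes measured in the same libraries, not independent replicates.

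**Figure D4:**
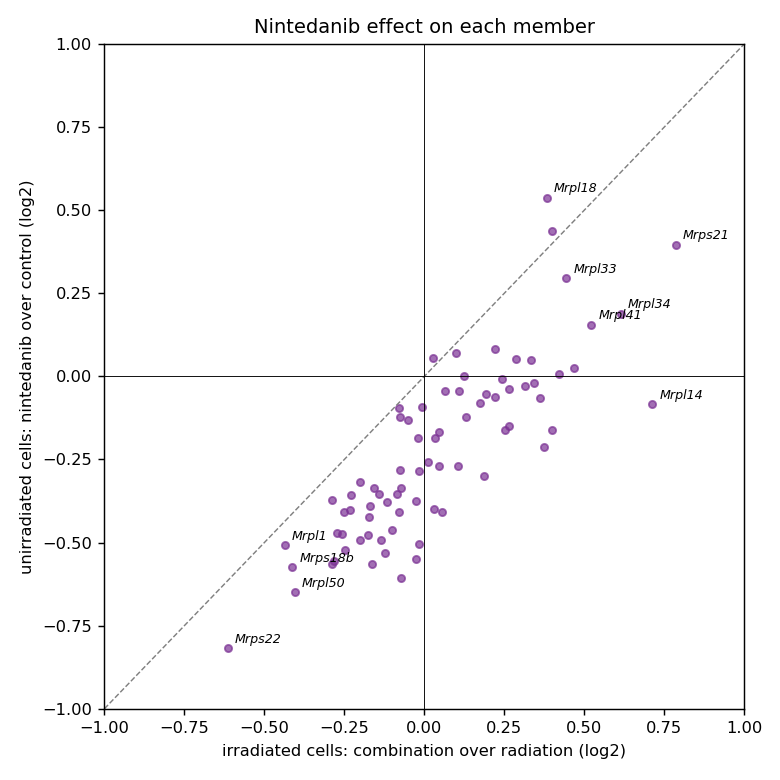
Each point is 1 of the 77 tested members: its log2 fold change with nintedanib in irradiated cells (x axis, combination over radiation) and in unirradiated cells (y axis, nintedanib over control). The dashed line marks equal effects; 74 of the 77 points lie to its right, where the value in irradiated cells is the higher one.

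The interaction, the drug's effect in irradiated cells minus that in unirradiated cells, asks whether both effects add up. It was called for 0 members by limma, against 0.00769% of all genes, and for 0 by limma-voom on the recovered fragments. At an unadjusted p under 0.05 there were 19 of the 77 members and 1685 of the 13012 genes. The members' median interaction was 0.26 (log2), against 0.01 for all genes, and it was above 0 for 74 of 77 members and for 51.9% of all genes. Mrpl9 had the smallest p (interaction 0.41, SE 0.12, limma adjusted p = 0.248). It stood at 16.7, 20.2 and 20.1 FPKM in combination libraries, 18.4, 18.2 and 17.3 FPKM in nintedanib libraries, 21.7, 20.9 and 19.6 FPKM in radiation libraries, and 26.3, 28.5 and 24.6 FPKM in control libraries. Its 3 treated groups were thus all below the controls and close to each other. Rescaling to a common sum moved the median of all genes to -0.10, and that of the members to 0.14. The members' median less that of all genes was 0.25 as deposited, 0.20 to 0.32 when any 1 library was left out, and 0.10 when only the first combination library was kept.

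The combination against nintedanib asks what X-rays changed in drug-treated cells, and 1 member was called. Mrps18b fell, against 2.37% of all genes that fell and 3.17% that rose (5.55% in either direction). It stood at 8.47, 9.01 and 10.1 FPKM in combination libraries, against 13.0, 10.6 and 13.2 FPKM in nintedanib libraries. The groups did not overlap (log2 fold change -0.38, SE 0.09, limma adjusted p = 0.0302). The call was lost without nintedanib library 1 or 3 and without combination library 1 or 2. Mrpl14 had the largest change in the other direction (log2 fold change 0.65, limma adjusted p = 0.091), which did not pass, at 36.1 ± 6.69 FPKM in combination libraries and 23.2 ± 7.19 FPKM in nintedanib libraries (SD, n = 3 each). Mrps18b was thus called as lower in all 5 comparisons tested between groups. These share libraries and 1 fit, so they are not 5 separate results.

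Mammals have 3 related genes, Mrps18a, Mrps18b and Mrps18c, for relatives of a single bacterial small-subunit protein, and their values differed. The product of Mrps18a sits in the large subunit of the mammalian particle. Mrps18a averaged 7.61 ± 1.24 FPKM in combination, 7.18 ± 0.302 in nintedanib, 8.33 ± 1.34 in radiation and 9.65 ± 0.531 in control libraries (SD, n = 3 each). It fell with nintedanib (log2 fold change -0.38, limma adjusted p = 0.0228) and with the combination (-0.32, limma adjusted p = 0.0453), the second call being lost in 15 of 25 settings. Mrps18c averaged 9.31 ± 0.555, 8.65 ± 0.928, 8.61 ± 1.24 and 9.04 ± 1.88 FPKM in the combination, nintedanib, radiation and control libraries, and no comparison of it passed. Mrps18b overlaps the antisense gene Gm16279 by 1837 bases, which averaged 0.467 FPKM. Its neighbour Ppp1r10 starts 45 bases away on the other strand and did not pass with nintedanib (log2 fold change -0.16, limma adjusted p = 0.149). Mrpl50 likewise has Zfp189 starting 83 bases away on the other strand, and Zfp189 rose with nintedanib (log2 fold change 0.29, limma adjusted p = 0.0239). Of the 77 tested members 32 had a tested gene starting within 1000 bases on the other strand. Some of these fell with nintedanib together with their member, as Mtbp (log2 fold change -1.01) beside Mrpl13 and Twnk (-0.77) beside Mrpl43. The bodies of Mtbp and Mrpl13 overlap by 341 bases. Others moved against their member. Wdfy1 (0.51) rose beside Mrpl44, which fell, and Tcp1 (-0.26) fell beside Mrpl18, which rose. Whether such neighbours change with their members more often than other genes was not tested.

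The changes of the members varied with the length of their gene models. With nintedanib, 0 of 8 members under 1000 bases fell or rose, and of 46 members of at least 2000 bases 28 fell and 1 rose. Of all protein-coding genes tested 9.09% fell and 11.1% rose in the shorter class, and 25.2% fell and 22.7% rose in the longer one, so with 8 members a count of 0 is near the share of short genes. With the combination against control, 4 of the 8 short members rose and 0 fell, and of the 46 long ones 30 fell and 1 rose. In that comparison 25.3% of short protein-coding genes rose and 10.8% fell, and 24.2% of long ones rose and 29.4% fell. Spearman's rho between log2 fold change and length over the 77 members was -0.55 for the combination, -0.42 for nintedanib and -0.07 for radiation, each against control. Over 10807 protein-coding genes it was -0.11, 0.02 and 0.11. For combination against radiation it was -0.62 over the members and -0.22 over those genes. The genes share libraries. Members under 1000 bases had 142 (Mrpl41) to 713 (Mrps21) fragments in a library, within the 134 to 1655 of all tested members.

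**Figure D5:**
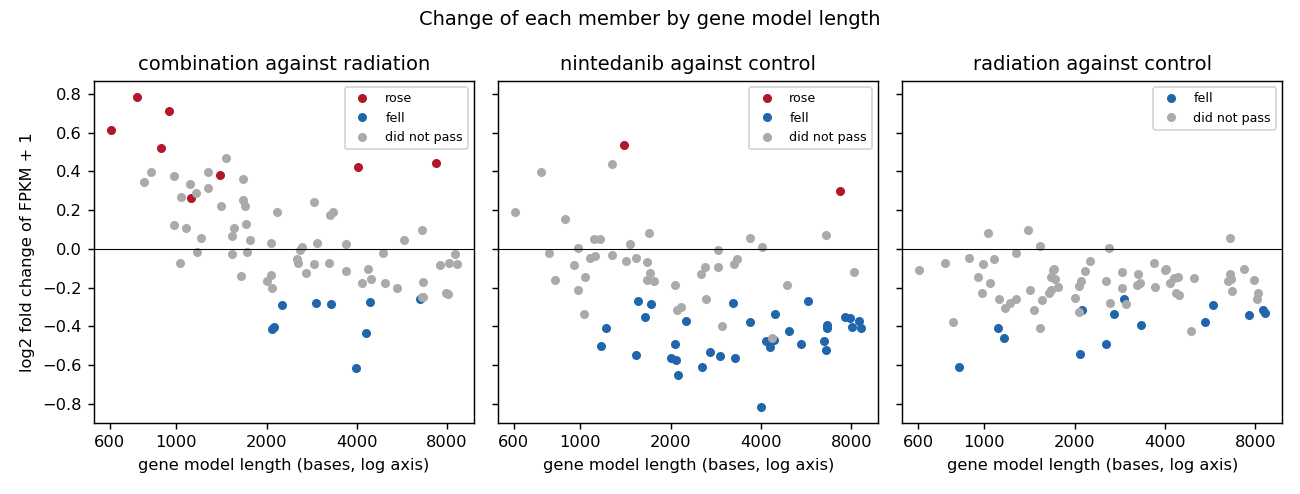
log2 fold change of FPKM + 1 (y axis) against gene model length in bases (x axis, log scale) for the 77 tested members, for combination against radiation, nintedanib against control and radiation against control. The 4 of 8 members under 1000 bases in colour in the left panel all rose; the 28 members of at least 2000 bases that fell with nintedanib stand below 0 in the middle panel.

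Short genes as a class varied between libraries, with combination libraries 2 and 3 at the high end and radiation libraries 2 and 3 at the low end. The 297 protein-coding genes under 1000 bases had a median deviation from their gene means of 0.24 and 0.23 (log2) in combination libraries 2 and 3 and -0.05 in the first. They had -0.01, -0.16 and -0.16 in radiation libraries 1, 2 and 3, -0.08 to 0.08 in nintedanib libraries, and -0.12, 0.13 and -0.04 in control libraries. The 8 short members had 0.37 and 0.41 in combination libraries 2 and 3 and 0.00 in the first, -0.11, -0.30 and -0.31 in radiation libraries, and -0.15, 0.20 and -0.11 in control libraries. Their rises against radiation thus set the highest libraries of the class against the lowest. With each library's trend over gene length removed, 6 members rose and 35 fell with the combination against control, and 6 rose and 9 fell against radiation. Of all genes 3205 rose and 3166 fell against control, and 2344 rose and 2271 fell against radiation. With only the first combination library kept, the members' median log2 fold change was -0.34 against control, beside -0.03 for all genes. Against radiation it was -0.15, beside -0.01. Then 9 of the 77 members were above 0 against control and 25 against radiation, where all libraries gave 26 and 38. In that fit the lone library is assumed to vary like the other groups. Both settings were chosen after seeing the data.

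Genes that serve the same ribosome without its names were counted beside the members. Of 5 tested subunit genes with other symbols, 1 fell with nintedanib and with the combination, and 0 changed with radiation. This was Ptcd3, a small-subunit protein, at 7.58 ± 0.354 FPKM in combination, 7.79 ± 0.411 in nintedanib, 11.6 ± 0.526 in radiation and 11.4 ± 0.490 in control libraries (SD, n = 3 each). The share of 20.0% that fell is near the 22.0% of all genes with nintedanib and 25.0% with the combination. Of 28 tested genes for assembly of the particle and modification of its RNAs, 19 fell and 2 rose with the combination, 18 fell and 2 rose with nintedanib, and 7 fell and 1 rose with radiation. Their shares that fell, 67.9%, 64.3% and 25.0% in that order, stand beside 25.0%, 22.0% and 9.90% of all genes. Among these 28 genes C1qbp, an assembly factor, averaged 39.6 FPKM in combination, 39.4 in nintedanib, 56.6 in radiation and 81.4 in control libraries (log2 fold change with nintedanib -1.06). Ngrn, part of a module that stabilises the large ribosomal RNA, had -0.93 with nintedanib, the RNA methyltransferase gene Mrm3 had -0.78 and Trmt10c, a tRNA methyltransferase and RNase P subunit, had -0.76.

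Of 14 tested translation factors, 4 fell and 2 rose with the combination, 3 fell and 1 rose with nintedanib, and 1 fell and 1 rose with radiation. Their shares that fell, 28.6%, 21.4% and 7.14% in that order, were near those of all genes, 25.0%, 22.0% and 9.90%. Mrrf, the ribosome recycling factor, had a log2 fold change of -0.38 with nintedanib, and Mtfmt, which formylates the initiator tRNA, had 0.25. Of 7 genes for mitochondrial transcription, 4 fell and 1 rose with the combination and with nintedanib, and 1 fell with radiation. Shares of 57.1%, 57.1% and 14.3% thus fell with the combination, nintedanib and radiation, beside 25.0%, 22.0% and 9.90% of all genes. With nintedanib the polymerase gene Polrmt (log2 fold change -0.28) and the genes of its factors Tfam (-0.54), Tfb2m (-0.31) and Tefm (-0.61) fell, and Mterf2 (0.37) rose.

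Of 15 tested genes that the organelle itself encodes, 2 rose with the combination, 4 with nintedanib and 0 with radiation, and 0 fell in each. The shares that rose, 13.3% with the combination and 26.7% with nintedanib, stand beside 22.3% and 19.7% of all genes. With nintedanib these were the large ribosomal RNA mt-Rnr2 (log2 fold change 0.29) and the complex I genes mt-Nd1 (0.55), mt-Nd2 (0.70) and mt-Nd4 (0.44). The mitochondrial share of fragments, highest in the third nintedanib library, counts the fragments of these same genes and is no separate measure. The part of that library in this result was not examined here. Of 9 tested regulators of nuclear genes for mitochondrial proteins, 6 fell with the combination, 7 with nintedanib and 4 with radiation, and 0 rose. The shares that fell, 66.7%, 77.8% and 44.4% in that order, stand beside 25.0%, 22.0% and 9.90% of all genes. Nrf1, the factor of the first motif, averaged 3.33 FPKM in combination, 3.82 in nintedanib, 3.98 in radiation and 5.76 in control libraries. Myc averaged 29.8, 38.4, 74.2 and 175.9 FPKM in the same order of groups, and the coactivator Pprc1 11.3, 13.1, 18.8 and 26.2 FPKM. The coactivator Ppargc1a reached at most 0.0171 FPKM in any library.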

How the data were processed

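RNA from cultures of MC38 cells was sequenced in 12 libraries, grouped and numbered by their titles. Per the labels' protocols, column-purified total RNA went into a SMARTER mRNA kit, and the experiment was repeated independently 3 times. The authors deposited FPKM per gene, beside each gene's model length and biotype, per the file headers. GRCm38 (mm10) is named as the build in the submitters' processing notes. The aligner, the counter and the strand used were not given in the sources used here. All 78 members' identifiers were in GENCODE M21, 73 at the same position.

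FPKM times length gave whole fragments for 100% of nonzero values in every library, within a tolerance of 0.01 of a fragment. The depth implied by the deposited scaling was 1.00 to 1.03 of the fragment total in treated libraries and 0.970 to 0.982 in controls. Replicates were compared by a chi-square statistic of their fragments per gene, which was 4.53 to 33.1 in the 12 pairs, so all were counted separately.

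Differences were tested with limma 3.58.1 in R 4.3.3 (two-sided, empirical Bayes, trend over intensity) on log2(FPKM + 1), which understates changes at low FPKM. All 12 libraries entered 1 fit with 8 residual degrees of freedom, over the 13012 genes with at least 1 FPKM in at least 3 libraries. In each of 6 comparisons the Benjamini-Hochberg adjustment ran over all genes tested, with a threshold of 0.05. The fit was tested on simulated data. The alternatives covered the pseudocount, filters, scaling, voom, the trend, a replicate block and each library left out. Promoter windows came from the RefSeq table of GRCm38.p6.

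The members, lists, motifs and tests were chosen with earlier results of these data known. With their fold change and test, up to 10 members of largest rise and of largest fall past the threshold were named per comparison, with the Mrps18 genes, the members at the extremes of level and those nearest to no change. Of each related list, up to 4 genes were named by adjusted p, smallest first, and any gene of a list of at most 10.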

Additional observations from a re-analysis of the deposited data

Results flagged for a closer look

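For Mrpl49, which encodes a large-subunit protein, the irradiated libraries were all above the unirradiated ones with the drug and all below them without it. Neither radiation difference passed (log2 fold change 0.11, limma adjusted p = 0.349, with nintedanib, and -0.16, limma adjusted p = 0.128, without it). With nintedanib it was at 20.4, 22.0 and 20.4 FPKM in combination libraries, all above 19.4, 19.2 and 19.2 FPKM in nintedanib libraries. Without the drug it was at 22.4, 21.5 and 19.8 FPKM in radiation libraries, all below 22.8, 25.4 and 22.9 FPKM in control libraries. The interaction was 0.27 (log2, 0.268) with an unadjusted p of 0.015, and it did not pass after adjustment (limma adjusted p = 0.29). The interaction was above 0 in 74 of 77 members, so this sign is not particular to Mrpl49.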

How the results depend on the processing

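No call of a member changed direction in the settings tried, and calls kept in all of them numbered 21 of 36 for nintedanib against control, 20 of 38 for the combination against control, 5 of 17 for the combination against radiation, 1 of 14 for radiation against control and 0 of 1 for the combination against nintedanib. The radiation count of 14 was 4 without the filter, 3 with a common sum, 8 with median ratio scaling, 5 with library totals and 9 without the trend. Calls over all genes were 1753, 1910, 2202, 2174 and 2256 in these settings, against 2334. The radiation count was 15 with voom, 16 with protein-coding genes only and 16 with only the groups compared. Calls over all genes tested were 2471, 2519 and 2784 there. The combination against radiation count of 17 was 10 without the filter and 6 with only the first combination library. The combination against nintedanib count of 1 was 0 without the filter, with only the groups compared and with only the first combination library, and 2 with voom. Leaving out 1 library gave 25 to 39 calls for nintedanib, 28 to 38 for the combination and 1 to 15 for radiation, each against control, 10 to 22 for the combination against radiation and 0 to 1 against nintedanib. Calls over all genes were 4494 to 5465, 5209 to 6448, 1145 to 2606, 3554 to 4751 and 269 to 652, in that order. The interaction gave 0 members in each setting. With the replicate block the counts were 34 for nintedanib, 30 for the combination and 5 for radiation, each against control, 13 for the combination against radiation, 1 against nintedanib and 0 for the interaction. Same-numbered libraries of different groups correlated at -0.298 to 0.202 in their deviations, over 18 pairs, so the numbers were not taken to pair the samples. The causes were not tested. With 3 libraries a group, replication limits the precision. Fragment numbers did not set all short members apart. The short Mrpl41 had 142 to 257 in a library and the short Mrps21 282 to 713, and the longer Mrps22 had 291 to 654.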
